A study of Mus musculus with 30 samples.

Results

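The 10 genes described here encode DNA-binding transcription factors of the heart: Gata4 and Gata6 (zinc finger proteins of the GATA family), Nkx2-5 (a homeodomain protein), Tbx5 and Tbx20 (T-box proteins), Hand2 (a basic helix-loop-helix protein), and Mef2a, Mef2c, Mef2d and Srf (MADS-box proteins). They were chosen by name, as the rows of the count table whose gene symbol is one of these, and make up 10 of 55487 gene identifiers. Poly(A) RNA was sequenced from 30 mouse hearts. Their donors had undergone transverse aortic constriction (TAC), in which the heart must pump against a clipped aorta, or a sham operation 8 weeks before. In the floxed cohort, 4 libraries each came from mice with a floxed Cpt1a gene after sham (FF_sham) or TAC (FF_TAC), and from mice labelled as having a cardiac-specific knockout of Cpt1a after sham (KO_sham) or TAC (KO_TAC). In the AAV9 cohort, C57Bl/6 mice received saline and sham (PBS_sham) or TAC (PBS_TAC), 3 libraries each, or AAV9.Cpt1a, a viral vector that carries Cpt1a, and sham (AAV_sham) or TAC (AAV_TAC), 4 libraries each. The design text puts cTNTN in the vector's name and speaks of a knockdown where the labels say knockout. The driver of the knockout, the age of the mice and the chambers sampled are not given in the sources used here. The labels number the hearts without stating that each is a separate animal, so p-values measure the spread between these samples, which may be technical.

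In the developing heart these factors bind neighbouring sites and each other, and in adult cardiomyocytes they keep contractile, ion channel and metabolic genes expressed. GATA4, MEF2 proteins and SRF are known to act in the hypertrophic response to load, largely through protein modification and cofactors that a transcript count does not show. TBX5 is known for a higher level in atria than in the left ventricle, and several of the 10 are also made in other cells of the heart, such as Gata6 in smooth muscle and Mef2c in endothelium.

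Total counts ran from 14839758 to 22070373 per library, and each of the 10 genes was counted at least 259 times in every library. Cpt1a, the targeted gene, had 11.1 to 19.6 CPM (counts relative to the library total, TMM-scaled within a cohort) in KO_TAC and 37.8 to 52.6 CPM in FF_sham, but KO_sham 2 as labelled reached 46.2 CPM, within that of FF_sham, while FF_TAC 2 and 3 had 20.3 and 16.2 CPM. Directions drawn from KO_sham or FF_TAC rest on these labels. In the AAV9 cohort Cpt1a had 56.3 to 88.3 CPM in AAV_sham and 37.4 to 68.0 CPM in PBS_sham. It had 44.8 to 62.6 CPM in AAV_TAC and 40.2 to 61.5 CPM in PBS_TAC. Both pairs of groups overlapped, so the vector comparisons rest on the labels, and whether vector transcripts count towards Cpt1a is not given in the sources used here. In 7 libraries (FF_TAC 2 and 3, KO_sham 2 and all 4 of KO_TAC) haemoglobin transcripts summed to 1.40 to 51.1 CPM, against 293.9 CPM or more in the other 23. The 12 early response genes examined (Fos, Egr1 and others) summed to 1710 to 5845 CPM in those 7 libraries and to 175.7 to 259.3 CPM in the other 9 floxed libraries. PBS_sham 3 stood apart in the AAV9 cohort, with 33611 summed CPM of 6 cardiomyocyte markers (53930 to 62870 in the other 13 libraries) and 2833 of 5 smooth muscle markers (251.1 to 512.0). Sums over haemoglobin, early response or marker genes, here and below, are CPM without TMM scaling, unlike the levels of single genes. In bulk hearts, fewer cells of a type and less RNA per cell cannot be told apart.

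Sequences just upstream of a RefSeq start site are shown for the 4 genes that passed the test in at least one comparison. They are what these genes' products or other factors could bind. For Nkx2-5 that start lies inside the gene's GENCODE span (chr17:26838664-26845009, minus strand), downstream of its annotated 5′ end. RefSeq promoter windows (GRCm38.p6) were at hand for 7 of the 10 genes, and the bases before the start that overlap no annotated exon of the gene are printed 5′ to 3′ on the gene's strand, with CArG boxes, the motif bound by SRF, in capitals.
Srf (chr17:46556176-46556412, minus strand): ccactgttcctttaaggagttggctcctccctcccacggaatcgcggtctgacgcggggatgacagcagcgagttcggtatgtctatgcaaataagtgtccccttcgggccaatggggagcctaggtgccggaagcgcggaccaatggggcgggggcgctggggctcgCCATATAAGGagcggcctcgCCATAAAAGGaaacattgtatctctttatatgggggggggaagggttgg
Mef2a (chr7:67372859-67373108, minus strand): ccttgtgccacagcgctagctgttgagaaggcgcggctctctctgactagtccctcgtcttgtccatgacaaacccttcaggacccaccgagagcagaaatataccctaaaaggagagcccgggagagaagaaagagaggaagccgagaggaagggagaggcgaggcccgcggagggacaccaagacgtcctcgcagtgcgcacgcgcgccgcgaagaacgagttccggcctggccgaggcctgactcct
Nkx2-5 (chr17:26841609-26841815, minus strand): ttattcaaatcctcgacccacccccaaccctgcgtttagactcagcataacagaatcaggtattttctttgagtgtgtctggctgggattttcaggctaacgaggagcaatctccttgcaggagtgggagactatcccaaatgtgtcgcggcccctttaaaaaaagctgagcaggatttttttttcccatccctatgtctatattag
Tbx20 (chr9:24774304-24774553, minus strand): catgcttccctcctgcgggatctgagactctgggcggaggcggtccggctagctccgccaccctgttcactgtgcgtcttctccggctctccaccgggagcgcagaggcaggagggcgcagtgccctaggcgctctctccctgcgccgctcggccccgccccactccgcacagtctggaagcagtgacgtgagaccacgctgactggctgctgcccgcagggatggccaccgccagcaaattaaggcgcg

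The Srf window held 2 CArG boxes, at bases -82 to -73 and -62 to -53 from the RefSeq start. A CArG box was present in 1.47% of the 32851 windows of 250 bases searched on both strands, and Srf was the only one of the 7 genes to hold one. The searched set also held the MEF2 site by name (0.508% of windows), GATAA (22.6%), AAGTG, bound by NK2 factors (40.7%), AGGTGT, part of the T-box motif (11.8%), and TATAAA (12.4%). The windows of Mef2a, Nkx2-5 and Tbx20 held none of these letters. A match is a description of the sequence and not evidence of binding.

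Per kilobase of annotated exon, mean levels in the floxed cohort were highest for Nkx2-5 (37.8 CPM per kb), Srf (31.8), Gata4 (27.4), Mef2d (24.9) and Hand2 (19.3). They were lower for Mef2a (9.78), Gata6 (8.19), Tbx5 (8.03), Tbx20 (6.84) and Mef2c (3.51). In the AAV9 cohort Hand2 (27.7 CPM per kb) lay slightly above Mef2d (27.6) and Gata4 (27.5). Tbx5 spanned the widest range among libraries of the floxed cohort (15.6 to 133.8 CPM, 8.58-fold), and Gata4 (77.3 to 132.3 CPM, 1.71-fold) the narrowest.

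Across the floxed groups, Gata4, an early cardiomyocyte regulator, was 117.1 ± 11.5 CPM in FF_sham, 112.9 ± 10.5 in FF_TAC, 100.6 ± 15.9 in KO_sham and 96.5 ± 6.54 in KO_TAC (SD, n = 4 each). Neighbours in that order had overlapping libraries, and only the first and the last, FF_sham and KO_TAC, were wholly apart. The lowest FF_sham library had 107.1 CPM and the highest KO_TAC library 105.8 CPM. That pair of groups differs in genotype and surgery and was not a planned comparison, so no share over all genes is given. The separation was not particular to Gata4. Mef2a had 138.8 CPM or more in FF_sham and 134.2 CPM or less in KO_TAC. Tbx20 had 80.6 CPM or less in FF_sham and 90.8 CPM or more in KO_TAC. Mef2c, which is needed for the embryonic heart tube, had means of 49.2 to 59.2 CPM in the same groups, and the libraries of all 4 overlapped. Hand2, a regulator of ventricular growth, ran from 32.7 to 52.4 CPM in the 12 libraries outside KO_TAC and from 34.1 to 86.8 CPM in KO_TAC, where 2 libraries lay above all others of the cohort.

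**Figure D1:**
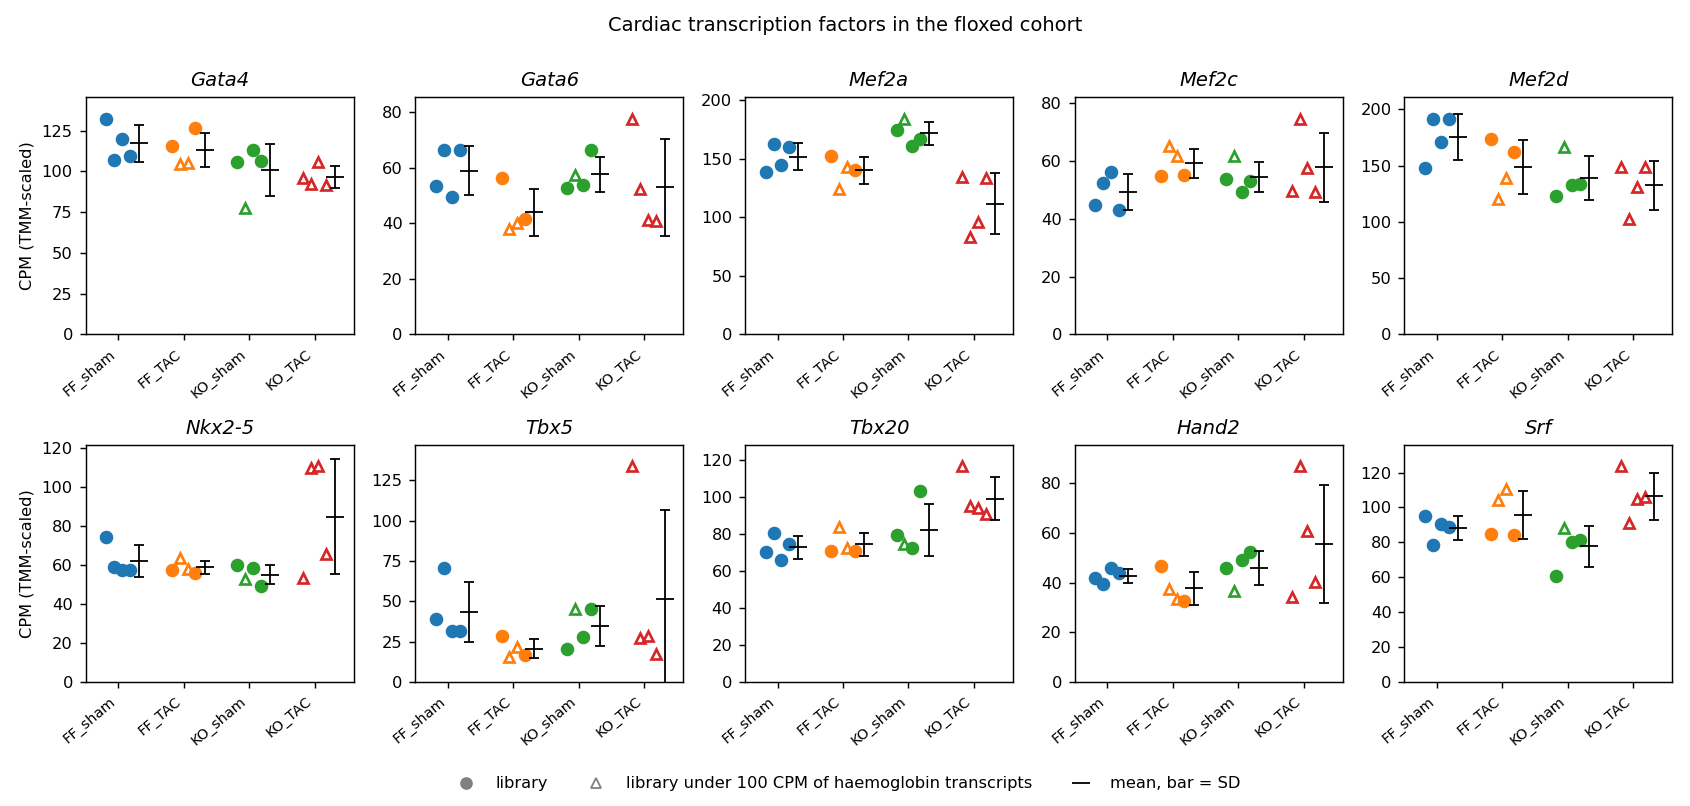
CPM (TMM-scaled) of each of the 10 genes in the 16 floxed-cohort libraries, 1 point per library, with the group mean and SD beside the points. Open triangles are the 7 libraries with under 100 CPM of haemoglobin transcripts. Mef2a lies lower and Srf higher in all KO_TAC libraries than in all KO_sham libraries.

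The comparison of TAC with sham in knockout hearts gives the difference with TAC within that genotype. It does not set loaded knockout hearts against loaded control hearts. Mef2a fell, and Nkx2-5 and Srf rose, in KO_TAC against KO_sham. Those 3 of 10 compare with 25.8% of all 15596 genes tested that passed the same test (edgeR's quasi-likelihood test, Benjamini-Hochberg adjusted p under 0.05), so the share of called members was near the background. By direction, 2 of the 10 rose and 1 fell, against 14.3% and 11.5% of all genes. At an unadjusted p under 0.05 there were 4 of the 10 (40.5% of all genes), and for 2 of the 10 the groups did not overlap (23.1% of all genes). The median log2 fold change was 0.18 over the 10 genes and 0.02 over all genes.

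Mef2a encodes a MADS-box activator of muscle and mitochondrial genes. Its level was 134.2, 83.1, 95.7 and 133.3 CPM in KO_TAC 1 to 4 and 174.1, 184.0, 161.0 and 166.6 CPM in KO_sham 1 to 4. The groups did not overlap, and KO_TAC 2 and 3 were lowest. Mef2a fell by 0.62 on the log2 scale (SE 0.14, edgeR adjusted p 0.00686), and the call held in all 8 fits that each left out one library. With a term for the 7 libraries low in haemoglobin the change was -0.61 with an adjusted p of 0.0873. Mef2a shares 302 bases of exon with Lysmd4 on the opposite strand, and the strand setting of the counting is not given. Lysmd4 itself had 6.50 ± 1.73 CPM in KO_TAC and 15.4 ± 2.12 CPM in KO_sham (SD, n = 4), so the Mef2a value is uncertain to the extent that reads were shared. Over the floxed cohort the Mef2a mean was 171.4 ± 9.93 CPM in KO_sham, 151.5 ± 11.5 in FF_sham, 139.8 ± 11.8 in FF_TAC and 111.6 ± 26.1 in KO_TAC (SD, n = 4 each), in falling order, and the ranges of neighbours in that order overlapped.

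Srf encodes the serum response factor, which binds CArG boxes in early response and contractile genes. It had 123.6, 91.0, 104.9 and 105.8 CPM in KO_TAC 1 to 4, all above the KO_sham range of 60.9 to 88.0 CPM. Srf rose by 0.45 on the log2 scale (SE 0.13, edgeR adjusted p 0.0225). The call was lost without KO_sham 1 (0.35, adjusted p 0.0675) or KO_TAC 3 (0.46, adjusted p 0.0528), without a filter on low counts (0.43, adjusted p 0.0521) and with all 30 libraries in one fit (0.45, adjusted p 0.109). With the haemoglobin term the value was 0.23 (adjusted p 0.391). In FF_TAC the 2 haemoglobin-low libraries had 104.1 and 110.8 CPM of Srf and the other 2 had 84.5 and 84.0 CPM. Within FF_TAC, Srf was thus high in the libraries high in early response genes, a set that SRF is known to regulate. The part of those genes in the KO_TAC result was not tested.

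Nkx2-5, a homeodomain factor required for heart formation and for conduction tissue, had 53.3, 109.3, 110.5 and 65.5 CPM in KO_TAC 1 to 4 and 49.2 to 59.8 CPM in KO_sham. The groups overlapped: KO_TAC 2 and 3 lay far above the KO_sham range and KO_TAC 1 inside it. Nkx2-5 rose by 0.62 on the log2 scale (SE 0.19, edgeR adjusted p 0.0269), a call lost in 5 of 8 fits that left out one library, namely KO_sham 2, 3 or 4 or KO_TAC 2 or 3 (adjusted p 0.052 to 0.105). The call was also lost with all 30 libraries in one fit (0.61, adjusted p 0.0822). With the haemoglobin term it was 0.61 (adjusted p 0.211). KO_TAC 2 and 3 were also the highest in Hand2 (86.8 and 60.5 CPM) and the lowest in Mef2a, and mitochondrial transcripts made up 12.1% and 12.4% of their counts, against 15.7% and 18.7% in KO_TAC 1 and 4 and 20.9% or more in the other floxed libraries.

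The other 7 genes did not pass in edgeR in KO_TAC against KO_sham. Limma voom with sample weights, an alternative test, called Gata6 besides (-0.38, adjusted p 0.0375), and it called 53.4% of all genes. DESeq2 called 30.9% of all genes. Tbx20 was 0.27 higher on the log2 scale (SE 0.12, edgeR adjusted p 0.109), with groups that overlapped through KO_sham 4 at 102.9 CPM. Without that library it was 0.39 (adjusted p 0.0329). Hand2 was 0.27 higher (SE 0.22, adjusted p 0.384), and Tbx5 0.58 higher (SE 0.54, adjusted p 0.443). Tbx5 was -0.53 without KO_TAC 1, the single library at 133.8 CPM. Gata6 was -0.38 without KO_TAC 1. Gata4 (-0.06, SE 0.12), Gata6 (-0.12, SE 0.19), Mef2c (0.08, SE 0.13) and Mef2d (-0.07, SE 0.15) differed by less than their standard errors.

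KO_TAC against FF_TAC compares knockout with control hearts under load. Tbx20, a T-box factor that maintains adult cardiomyocyte gene expression, was the only one of the 10 to pass in edgeR, while 14.3% of all 15596 genes did. At an unadjusted p under 0.05 there were 5 of the 10 (31% of all genes), and Tbx20 was the 1 of 10 without overlap of the groups (13.5% of all genes). It had 116.6, 95.0, 93.9 and 90.8 CPM in KO_TAC 1 to 4 and 70.6, 83.5, 72.4 and 70.7 CPM in FF_TAC 1 to 4, with no overlap. Tbx20 rose by 0.42 on the log2 scale (SE 0.12, edgeR adjusted p 0.0337). The call was lost in 5 of 8 fits without one library (FF_TAC 1, 3 or 4, or KO_TAC 1 or 3; adjusted p 0.0627 to 0.101), without a filter on low counts (0.40, adjusted p 0.093) and with all 30 libraries in one fit (0.39, adjusted p 0.167). With the haemoglobin term it was 0.41 (adjusted p 0.0906), and when just the 4 KO_TAC and 2 FF_TAC libraries low in haemoglobin were fitted it was 0.32 (adjusted p 0.619).

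For the other 9 genes the edgeR adjusted p was 0.073 or more in that comparison. Nkx2-5 was 0.53 higher on the log2 scale (SE 0.19, adjusted p 0.073), Hand2 0.56 higher (SE 0.23, adjusted p 0.106) and Tbx5 1.33 higher (SE 0.55, adjusted p 0.122). Without KO_TAC 1 the Tbx5 value was 0.21 and the Gata6 value 0.0081, and without KO_TAC 2 the Hand2 value was 0.26. Mef2a was -0.33 (SE 0.14, adjusted p 0.122). Gata4 (-0.23), Gata6 (0.27), Mef2c (-0.03), Mef2d (-0.17) and Srf (0.15) had adjusted p-values of 0.206 to 0.884. DESeq2 called 3 of the 10 (Nkx2-5, Tbx5 and Tbx20) and 19.6% of all genes. Limma voom with sample weights called 4 of the 10 (Mef2a, Nkx2-5, Tbx20 and Hand2) and 38.5% of all genes.

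Control hearts showed no called change of the 10 genes with TAC. In FF_TAC against FF_sham edgeR called 0 of the 10 and 0% of all genes, with 1 of the 10 (11% of all genes) at an unadjusted p under 0.05, and DESeq2 (1.12% of all genes) and limma voom (0%) also called 0 of the 10. Gata6, a GATA factor of muscle and outflow tissue, had 56.4, 37.8, 40.1 and 41.6 CPM in FF_TAC 1 to 4 and 49.3 to 66.5 CPM in FF_sham, a difference of -0.42 on the log2 scale (SE 0.19, edgeR adjusted p 0.445). Tbx5 had 15.6 to 28.4 CPM in FF_TAC and 31.6 to 70.6 CPM in FF_sham, with no overlap (-1.07, SE 0.55, edgeR adjusted p 0.488). Such separation was seen in 6.03% of all genes. Atrial marker transcripts, described further on, summed to 17.9 to 237.2 CPM in FF_TAC and to 24.9 to 3166 CPM in FF_sham, and their part in the Tbx5 difference was not tested. Mef2c was 0.27 (SE 0.13), Mef2a -0.12 (SE 0.14), Nkx2-5 -0.08 (SE 0.19) and Srf 0.12 (SE 0.13), with edgeR adjusted p-values of 0.477 to 0.883.

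Between the sham groups, KO_sham against FF_sham, edgeR called 0 of the 10 and 0% of all genes, and DESeq2 (0.0962% of all genes) and limma voom (0.192%) called 0 of the 10. At an unadjusted p under 0.05 there was 1 of the 10 (Mef2d, -0.34, SE 0.15, edgeR adjusted p 0.973), against 5.12% of all genes. Mef2d, a MEF2 factor linked to stress signalling, had 122.9 to 166.9 CPM in KO_sham and 148.1 to 191.8 CPM in FF_sham. The groups overlapped for all 10 genes, while 6.77% of all genes had groups that did not. Gata4 was -0.22 (SE 0.12, edgeR adjusted p 1), with KO_sham 2 lowest at 77.3 CPM.

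The interaction of knockout and TAC asks whether TAC acted differently in the genotypes. EdgeR called 0 of the 10 and 0.0449% of all genes. Mef2a (-0.50, SE 0.19, edgeR adjusted p 0.287) and Nkx2-5 (0.70, SE 0.27, adjusted p 0.28) had unadjusted p-values under 0.05, as did 13.1% of all genes. Tbx5 was 1.65 (SE 0.78; 0.54 without KO_TAC 1) and Srf 0.33 (SE 0.19). A difference of the TAC effect between genotypes was therefore not shown by edgeR for any of the 10. Limma voom with sample weights called 2 of the 10 (Mef2a -0.66, adjusted p 0.00818, and Nkx2-5 0.94, adjusted p 0.0084) and 18.8% of all genes, and DESeq2 called 0 of the 10 and 2.42% of all genes.

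**Figure D2:**
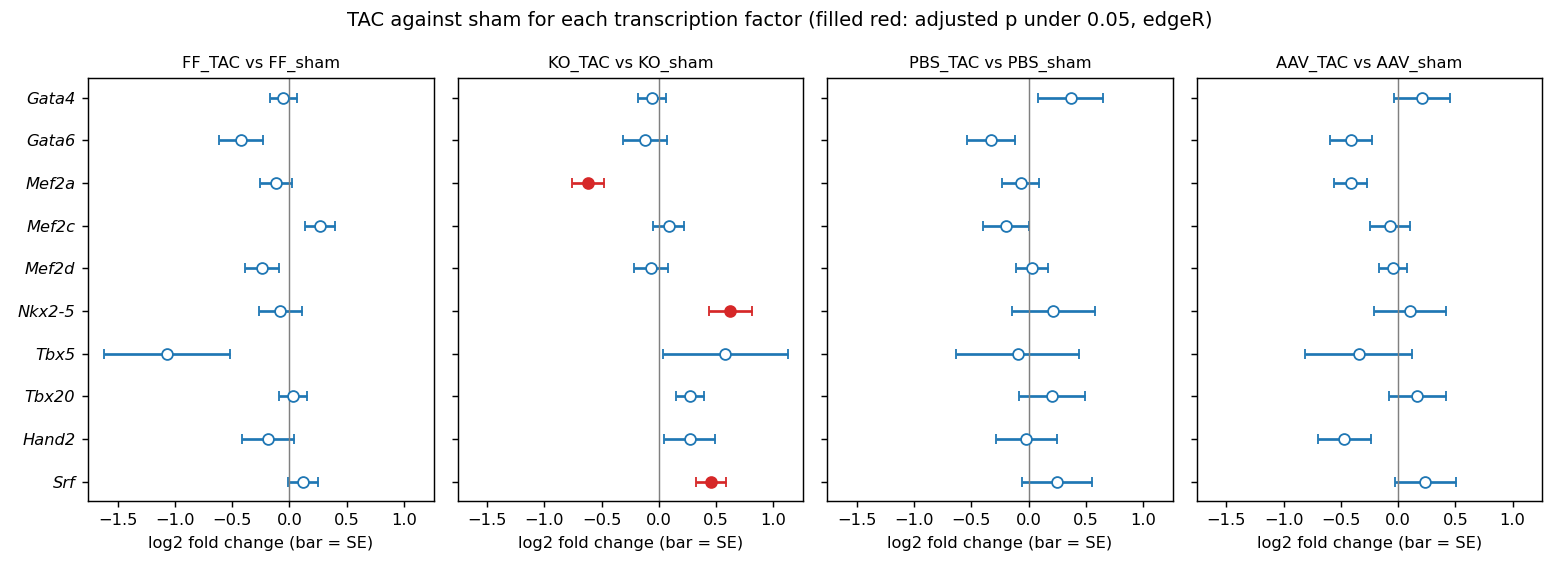
Log2 fold change of TAC against sham with its standard error for each gene in the 4 TAC comparisons, each with its own control libraries. Filled red points passed the edgeR test: Mef2a, Nkx2-5 and Srf in KO_TAC against KO_sham.

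In the AAV9 cohort edgeR called none of the 10 in any of the 5 comparisons, and DESeq2 called 0 of the 10 as well. The share of all genes called by edgeR was 0.0318% in PBS_TAC against PBS_sham, 0.00635% in AAV_TAC against AAV_sham, 0.0127% in AAV_sham against PBS_sham, 0.0381% in AAV_TAC against PBS_TAC and 0.00635% in the interaction. At an unadjusted p under 0.05 there were 2 of the 10 in AAV_TAC against AAV_sham (7.01% of all genes). There were 0 in PBS_TAC against PBS_sham (18.4% of all genes), AAV_sham against PBS_sham (20.6%), AAV_TAC against PBS_TAC (3.2%) and the interaction (6.9%). In PBS_TAC against PBS_sham the groups overlapped for all 10 genes, while 14.7% of all genes had groups that did not. In the same order of comparisons DESeq2 called 2.35%, 0.743%, 2.45%, 0.235% and 0.102% of all genes. Limma voom with sample weights called 3 of the 10 in AAV_TAC against AAV_sham (Gata6, Mef2a and Hand2; 2.33% of all genes) and 1 in PBS_TAC against PBS_sham (Gata6; 1.6%). It called 0 of the 10 in AAV_sham against PBS_sham (0.445% of all genes), AAV_TAC against PBS_TAC (0.616%) and the interaction (0.0826%).

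Mef2a had 148.1, 108.5, 150.1 and 139.2 CPM in AAV_TAC 1 to 4, all below the AAV_sham range of 161.7 to 203.5 CPM (-0.41 on the log2 scale, SE 0.14, edgeR adjusted p 0.485). Gata6 had 44.3 to 57.1 CPM in AAV_TAC, below the 65.1 to 74.3 CPM of AAV_sham (-0.41, SE 0.18, edgeR adjusted p 0.688). Srf had 96.9 to 120.2 CPM in AAV_TAC, above the 86.7 to 96.5 CPM of AAV_sham (0.24, SE 0.27, edgeR adjusted p 0.966). These 3 of 10 without overlap compare with 10.7% of all genes. Hand2 (-0.47, SE 0.23) and Nkx2-5 (0.11, SE 0.31) overlapped between the groups. Set beside the floxed cohort, the Mef2a log2 fold change with TAC was -0.12 in FF, -0.62 in KO and -0.07 in PBS hearts, and that of Gata6 was -0.42, -0.12 and -0.33. The Gata6 values were -0.38 in KO hearts without KO_TAC 1 and -0.04 in PBS hearts without PBS_sham 2.

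Vector against saline gave no called member. Gata4 had 104.7 to 122.6 CPM in AAV_sham, above all PBS_sham libraries (34.5 to 102.1 CPM; 0.50, SE 0.27, edgeR adjusted p 0.295), and was 0.13 without PBS_sham 3. Mef2a was 0.32 higher (SE 0.15, adjusted p 0.25), also without overlap, so 2 of the 10 were separated, against 10.9% of all genes. Between AAV_TAC and PBS_TAC, Gata4 (0.34, SE 0.27) and Srf (0.21, SE 0.29) did not overlap between the groups, 2 of the 10 against 8.47% of all genes, and had edgeR adjusted p-values of 1.

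**Figure D3:**
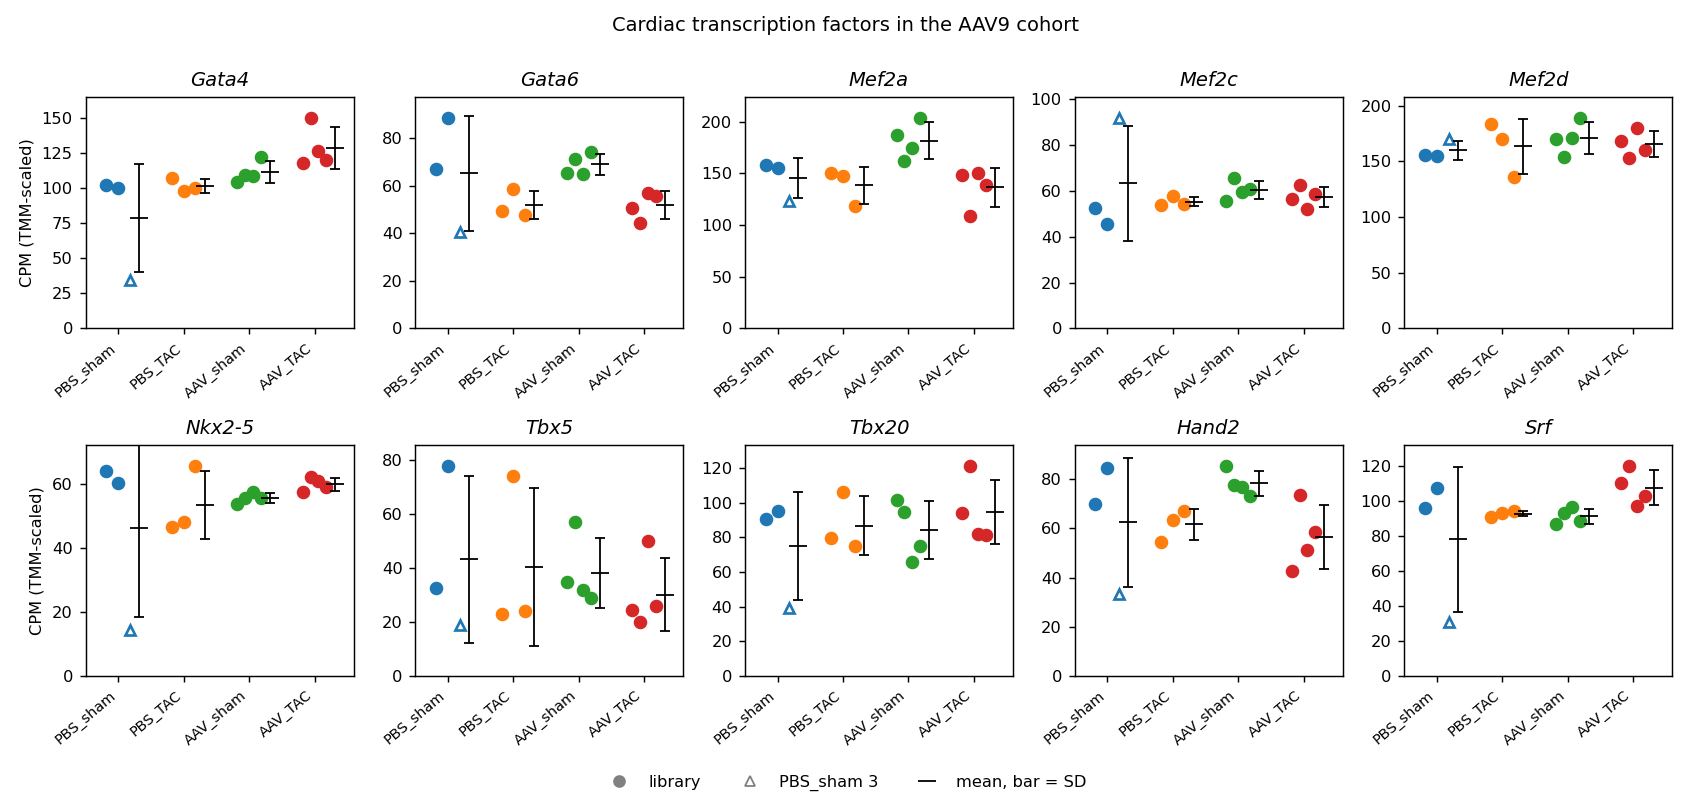
CPM (TMM-scaled) of each of the 10 genes in the 14 AAV9-cohort libraries, 1 point per library, with the group mean and SD. The open triangle is PBS_sham 3, which lies below the other 13 libraries in 7 genes and above them in Mef2c.

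PBS_sham 3 was singled out after its values were seen. It was below all 13 other AAV9-cohort libraries in Gata4 (34.5 CPM against 97.9 or more), Nkx2-5 (14.4 against 46.8 or more), Srf (30.7 against 86.7 or more), Tbx20 (39.4 against 66.0 or more), Hand2, Gata6 and Tbx5. It was above all of them in Mef2c (91.7 against 65.4 or less) and inside their range in Mef2a (122.9) and Mef2d (169.9). Its endothelial markers summed to 2078 CPM (758.0 to 982.6 in the others). The log2 fold change in PBS_TAC against PBS_sham went, without this library, from 0.37 to 0.01 for Gata4, from 0.22 to -0.21 for Nkx2-5, from 0.21 to -0.10 for Tbx20, from 0.25 to -0.13 for Srf and from -0.33 to -0.58 for Gata6. None of these had passed.

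**Figure D4:**
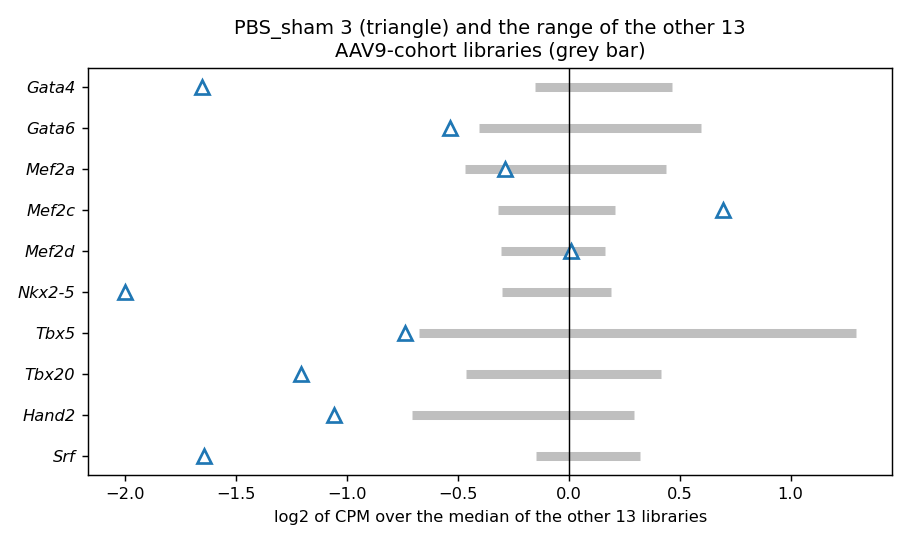
Log2 of the CPM of PBS_sham 3 over the median of the other 13 AAV9-cohort libraries (triangles) for each gene, with the range of those 13 (grey bars). Nkx2-5 lies lowest, at 0.249 of that median, and Mef2c highest, at 1.62 times it.

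Tbx5, a T-box factor of atria and conduction tissue, varied with atrial transcripts. The library with the highest sum of 5 atrial markers (Myl7, Myl4, Sln, Bmp10 and Stard10) was also the highest in Tbx5 in 7 of 8 groups and in Gata6 in 6 of 8. In the eighth group, KO_sham, Tbx5 was 45.2 CPM in both the library highest in atrial markers and in KO_sham 4. On the same measure Mef2a was highest in 5 of 8 groups, Mef2d and Tbx20 in 4, and the remaining members in fewer. The share over all genes was not computed. The atrial sum was 10058 CPM in KO_TAC 1 and ran from 13.6 CPM upward in all libraries. With Tbx5 at 133.8 CPM in KO_TAC 1, the other 3 KO_TAC libraries had 17.1 to 28.2 CPM. At a limit of 1000 CPM, chosen after the values were seen, 8 libraries had Tbx5 at 45.2 to 133.8 CPM and 22 had 15.6 to 39.2 CPM. Gata6 overlapped at that limit, with 57.1 to 88.5 CPM in the 8 libraries and 37.8 to 74.3 CPM in the 22. PBS_sham 3, at 962.4 CPM of atrial markers before TMM scaling, lay under that limit, with 19.0 CPM of Tbx5 after TMM scaling. Myl7 as a covariate left the calls of Mef2a, Nkx2-5, Srf and Tbx20 in place. With it the Tbx5 log2 fold change went from -0.09 to 0.60 in PBS_TAC against PBS_sham. It went from -0.35 to 0.17 in AAV_TAC against AAV_sham and from -0.18 to 0.29 in AAV_sham against PBS_sham. These had not passed with either value, and Tbx5 kept its sign in the other comparisons. The cause of these changes was not tested.

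**Figure D5:**
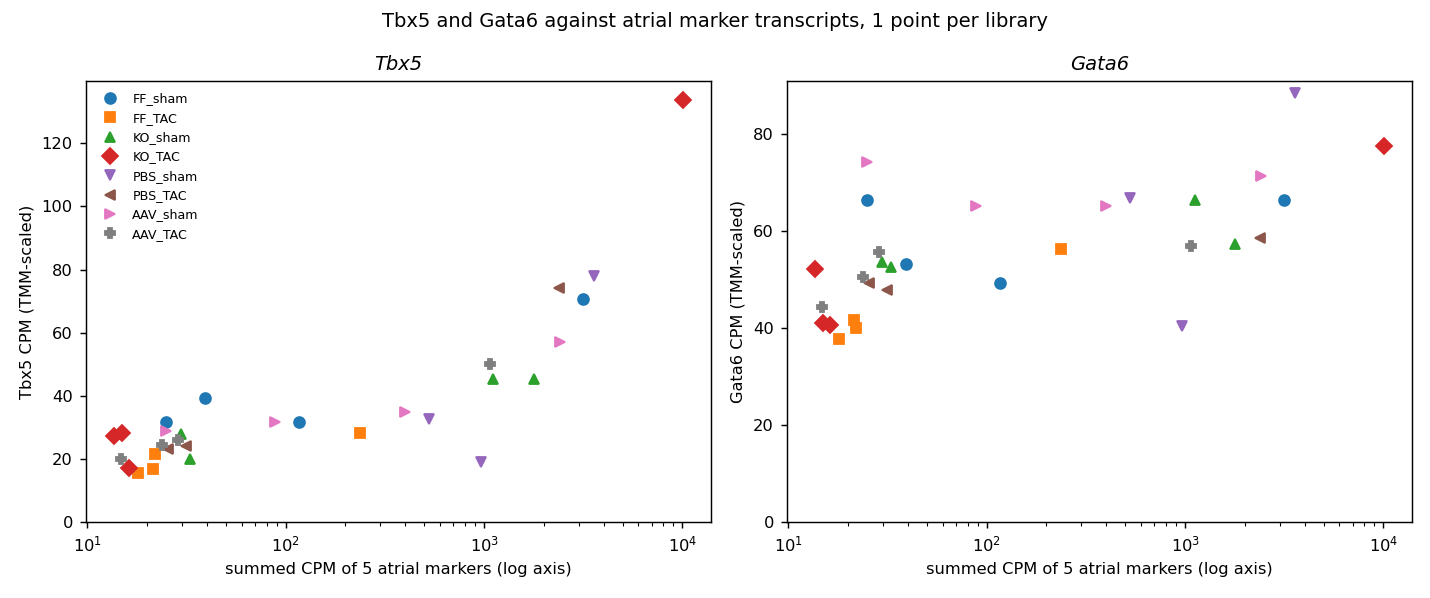
TMM-scaled CPM of Tbx5 (left) and Gata6 (right) against the unscaled summed CPM of 5 atrial markers on a log axis. Each of the 30 libraries in 8 groups is 1 point. KO_TAC 1 is the point at 10058 CPM of markers and 133.8 CPM of Tbx5.

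Genes of the same network, from lists drawn up for these 10 factors, were counted in the KO_TAC comparisons, where the share of all genes called was 14.3% higher and 11.5% lower against KO_sham. Of 29 other heart transcription factors and cofactors tested, 2 rose and 5 fell (median log2 fold change -0.01, against 0.02 over all genes). Zfpm2, a GATA cofactor also called FOG2, fell by 0.76 (SE 0.16, edgeR adjusted p 0.00513), and Prox1 fell by 0.70 (SE 0.15, adjusted p 0.00513). Nfatc1, a calcineurin-dependent factor, rose by 1.56 (SE 0.37, adjusted p 0.0092), and Hopx, a homeodomain-only partner of SRF, fell by 0.79 (SE 0.19, adjusted p 0.0104).

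Of 20 regulators of MEF2 and SRF, 2 rose and 5 fell (median -0.15). Rcan1, a calcineurin inhibitor that calcineurin itself induces, rose by 1.54 (SE 0.34, edgeR adjusted p 0.00717), and Elk4, an SRF partner, rose by 0.46 (SE 0.11, adjusted p 0.0103). Mapk14, the p38 kinase that phosphorylates MEF2, fell by 0.71 (SE 0.16, adjusted p 0.00766), and Hdac9, a MEF2 repressor, fell by 0.59 (SE 0.15, adjusted p 0.012).

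Of 30 cardiomyocyte target genes, 9 rose and 5 fell (median 0.27). Myh7, the slow myosin heavy chain, rose by 2.51 (SE 0.47, edgeR adjusted p 0.00323), and Ankrd1, a stress-induced sarcomere protein, rose by 2.34 (SE 0.47, adjusted p 0.0045). The calcium channel gene Cacna1c fell by 0.70 (SE 0.13, adjusted p 0.00288), and Pln, the inhibitor of the sarcoplasmic calcium pump, fell by 0.65 (SE 0.13, adjusted p 0.00373). Of 22 SRF target genes, 5 rose and none fell (median 0.93): Ccn2 by 2.50 (SE 0.44, adjusted p 0.0024), Tagln2 by 1.13 (SE 0.26, adjusted p 0.00838), Cnn2 by 0.82 (SE 0.19, adjusted p 0.00931), Zyx by 0.85 (SE 0.22, adjusted p 0.014) and Tln1 by 0.32 (SE 0.11, adjusted p 0.0374), a name outside the naming rule. In KO_TAC the 5 fibroblast markers summed to 1568 to 2069 CPM (1018 to 1623 in KO_sham) and the 5 endothelial markers to 434.6 to 733.3 CPM (705.3 to 874.5). All 4 KO_TAC libraries but 1 of the 4 KO_sham libraries were low in haemoglobin and high in early response genes. With the haemoglobin term, 0 of the 29, 0 of the 20 and 0 of the 30 were called, and of the 22 SRF target genes 1 rose and 0 fell, with a median of 0.04. Over all genes that term left 0.866% called higher and 0.91% called lower. The part of the fibroblast and endothelial markers in these counts was not tested. Fos, Fosb, Junb, Egr1, Egr2, Egr3 and Ier2 are in both the SRF target list and the early response genes. In FF_TAC against FF_sham, with FF_TAC 2 and 3 high in early response genes, the SRF target median was 0.67 (-0.01 over all genes). None of the 22 was called there.

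Against FF_TAC, where 7.53% of all genes were called higher and 6.8% lower, the counts were 0 higher and 4 lower of 29, 0 and 1 of 20, 2 and 5 of 30, and 2 and 0 of 22, in the same order of lists. With the haemoglobin term, where 3.93% of all genes were called higher and 3.32% lower, they were 0 and 0, 0 and 1, 0 and 2, and 2 and 0. KO_TAC is shared by both comparisons.

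The genes whose levels tracked each factor most closely over the 30 libraries, each centred on its cohort mean, are a description, since all points share their library and PBS_sham 3 is far from the rest in several genes. For Mef2a they were Rad21 and Ghr (Pearson r 0.94 and 0.93), for Nkx2-5 Pgk1 and Apobec2 (0.96 and 0.95), for Srf Dnaja4 and Prob1 (0.94 and 0.93) and for Tbx20 Calu and Arl1 (0.83 and 0.82). For Gata4 they were Mmachc and Fam185a (0.94 and 0.93), for Gata6 Pja1 and Abcc8 (0.89 and 0.86), for Tbx5 Rabgap1l and Abcc8 (0.92 and 0.89) and for Hand2 Gstm2 and Taldo1 (0.85 and 0.77). For Mef2c they were Tcf4 and Itpr2 (both 0.83) and for Mef2d Gcn1l1 and Ints1 (0.86 and 0.84). Over the 29 libraries without PBS_sham 3, r was 0.77 for Gata4 with Mmachc, 0.69 for Tbx20 with Calu and 0.94 for Mef2a with Rad21.

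Gata6, Mef2d and Hand2 also share exon bases with a gene on the opposite strand (93, 531 and 461 bases), so their counts are uncertain for the reason given for Mef2a. Group means of Hand2os1, opposite Hand2, were 52.3 to 72.7 CPM, beside 37.6 to 78.3 CPM of Hand2 itself. They were 5.73 to 9.17 CPM for 1010001N08Rik, opposite Gata6, and 0.231 to 0.469 CPM for 1700113A16Rik, opposite Mef2d. On GRCm38, Mef2d lies at chr3:88142372-88172086 and Hand2 at chr8:57320983-57324633, both on the plus strand. Mef2a lies at chr7:67231163-67372858, Srf at chr17:46548329-46556175, Nkx2-5 at chr17:26838664-26845009 and Tbx20 at chr9:24718138-24774303, all on the minus strand in GENCODE M21.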

How the data were processed

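The files hold whole-number counts per gene and library, as deposited, with totals that differ between libraries. Per the submitters' processing notes, HISAT2 2.1.0, Subread 1.5.1, featureCounts and build GRCm38 were used; strand setting and annotation release are not given in the sources used here. Identifiers were matched to GENCODE M21 symbols (55227 of 55487). The KO_TAC titles name both TAC and sham; genotype, treatment and column names were followed.

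Separate fits of the cohorts used edgeR 4.0.16 (R 4.3.3): quasi-likelihood test, TMM, filterByExpr, 1 mean per group, 15596 and 15745 genes tested. SE is the log2 fold change over the square root of F. DESeq2 1.42.0, limma 3.58.1 voom and other alternatives were run, and the script was tested on simulated data. Levels are CPM. Over the 42 pairs of libraries within a group, chi-square per degree of freedom was 6.29 to 234, so none of these pairs agreed within sampling noise.

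The members and lists were chosen with earlier results of these data known. The planned design did not name edgeR's fit options, which were set after counts were seen: the first run had no robust estimation (4031 genes called in KO_TAC against KO_sham), 16 settings were then tried (4018 to 4163), and robust estimation was kept because its 4018 equals an earlier analysis of these files. All 16 settings called the same members (3, and 1 against FF_TAC). Also chosen after values were seen were the atrial limit of 1000 CPM, the attention to PBS_sham 3, the motifs and the promoters printed, the list counts with the haemoglobin term, and which 47 of the 100 changes are given in the text. These were all changes in the KO_TAC comparisons, those elsewhere with an unadjusted p under 0.1 or without overlap of groups, and some set beside them. The AAV9-cohort Tbx5 values with and without the Myl7 covariate are given besides these 47.

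Named from the lists were called members, at most 4 a list by smallest p; named as alike were the 2 genes of highest Pearson r among the 10322 genes whose mean reached 5 CPM in both cohorts (log2 CPM, prior count 2).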

Additional observations from a re-analysis of the deposited data

Results flagged for a closer look

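Of 60 groups of 4 libraries examined, 4 held a library separated from the other 3 by a gap that exceeded Dixon's 95% critical value for its share of the group's range, where chance alone gives about 1 in 20. Nkx2-5 was 74.39 CPM in FF_sham 1, against 57.08 to 58.69 CPM in the other 3. Tbx5 was 133.8 CPM in KO_TAC 1, against 17.13 to 28.22 CPM, in the library highest in atrial markers. Tbx20 was 83.46 CPM in FF_TAC 2 (70.57 to 72.41 CPM in the others) and 116.6 CPM in KO_TAC 1 (90.75 to 95.01 CPM in the others). The groups of 3 libraries, which include PBS_sham 3, were not examined in this way.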

How the results depend on the processing

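Over all 100 changes (10 genes in 10 comparisons) there were 1999 alternative values: 1832 kept direction and side of the threshold, 18 passed newly, 22 no longer passed and 127 changed sign. None of the 127 had passed with either value. For the 47 changes given in the text, the AAV9-cohort Tbx5 values aside, 853 of 919 kept both and 26 changed sign. Where not stated, the cause was not tested.

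The number of members called in KO_TAC against KO_sham (3) was 1 with all 30 libraries in one fit, 0 with the haemoglobin term and 1 to 3 when one library was left out, with 1 without KO_TAC 3. In KO_TAC against FF_TAC (1) it was 0 without a filter on low counts, where 32688 genes were tested, 3 with DESeq2, 4 with limma voom, 0 with all 30 libraries in one fit, 2 with the Myl7 covariate, 0 with the haemoglobin term, 0 among haemoglobin-low libraries alone and 0 to 3 when one library was left out: it was 0 without FF_TAC 1, 3 or 4 or KO_TAC 3, 3 without KO_TAC 1 and 2 without KO_TAC 4. With limma voom the interaction of knockout and TAC went from 0 to 2, PBS_TAC against PBS_sham from 0 to 1 and AAV_TAC against AAV_sham from 0 to 3. Over all genes, the haemoglobin term took the number called in KO_TAC against KO_sham from 4018 to 277, limma voom to 8336.

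Sign changes with limma voom were Tbx5 in KO_TAC against KO_sham (-0.11), Mef2c in KO_TAC against FF_TAC (0.016), and Nkx2-5 (-0.27), Tbx20 (-0.11) and Srf (-0.15) in PBS_TAC against PBS_sham. With the haemoglobin term they were Srf in FF_TAC against FF_sham (-0.045) and Gata4 (0.20), Gata6 (0.017) and Mef2c (-0.080) in KO_TAC against KO_sham. Among haemoglobin-high libraries alone Srf in FF_TAC against FF_sham was -0.064, and among haemoglobin-low libraries alone Mef2d (0.0087) and Srf (-0.040) in KO_TAC against FF_TAC. When one library was left out, ranges that crossed 0 were, in KO_TAC against KO_sham, Tbx5 (-0.53 to 0.86), Mef2c (-0.067 to 0.14), Mef2d (-0.13 to 0.036) and Hand2 (-0.036 to 0.43). They were also Mef2c in KO_TAC against FF_TAC (-0.18 to 0.027), Nkx2-5 in FF_TAC against FF_sham (-0.12 to 0.014), and, in PBS_TAC against PBS_sham, Mef2a (-0.18 to 0.039), Nkx2-5 (-0.21 to 0.53), Tbx20 (-0.10 to 0.42) and Srf (-0.13 to 0.55).

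The replicate block called 3 members in KO_TAC against KO_sham and 1 against FF_TAC, with 0 in the other 8 comparisons. The labels do not state whether the numbers pair the hearts, and correlations in groups this small cannot decide it. Of 29 same-numbered pairs, 11 had a correlation of deviations over 0.1, and in 0 of 8 comparisons did all pairs. The block gave Mef2a -0.64, Nkx2-5 0.60 and Srf 0.46 against KO_sham and Tbx20 0.42 against FF_TAC. Without robust estimation the adjusted p was 0.00733 for Mef2a, 0.0281 for Nkx2-5, 0.0236 for Srf and 0.0352 for Tbx20. Each member was counted at least 259 times per library; depth was not varied.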
